A study of Mus musculus with 2 samples.

Results

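Guanylate-binding proteins (GBPs) are large GTPases that cells make in response to interferons, above all interferon gamma. They assemble on the membranes of pathogen-containing vacuoles and on cytosolic bacteria, open them to the cytosol and help inflammasomes to form, and macrophages are the cells in which they have been studied most. Their placement on vacuoles depends on the immunity-related GTPases (IRGs) and on the proteins that conjugate Atg8-type ubiquitin-like proteins to membranes. Of the 32285 genes in the count tables, 9 were followed by symbol: Gbp2, Gbp2b, Gbp3, Gbp4, Gbp5, Gbp6, Gbp7, Gbp8 and Gbp9. The tenth mouse gene of the family in the tables, Gbp10, had 2 UMIs in macrophages of each library and is not described further.

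The cells came from tumours grown from MC38, a mouse colon carcinoma line, in female C57BL/6 mice, and were harvested on day 14. Mice had received either LC427, a compound known only by this code, or vehicle. Tumours were digested, dead cells were taken out, and beads against CD45, which leucocytes carry on their surface, were used to collect cells before 5′ single-cell RNA sequencing. There was 1 LC427 library and 1 vehicle library, and the labels do not say how many mice were behind each. A difference between them therefore has no replicate check, no test between the treatments was possible, and the difference cannot be told apart from one between animals or cell preparations. The intervals below are 95% intervals that cover counting error only, and the UMIs of 1 cell are not independent of each other.

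After filtering, 6008 cells were kept in the LC427 library and 5025 in the vehicle library, with medians of 2356 and 3494 UMIs (unique transcript molecules) per cell. Only 46 cell barcodes occurred in both. Levels are given in CPM, UMIs per 1000000 UMIs of all the cells of a group summed. A UMI counts a transcript once whatever its length, so the CPM of different genes were compared without a length term. Most cells were monocyte/macrophage-like, with 3903 cells under LC427 and 3385 under vehicle. They formed several clusters, which are called by their leading genes. Free RNA was present: droplets with 10 to 100 UMIs, taken as empty, held 698 CPM of the 9 genes summed in the LC427 library and 494 CPM in the vehicle library, a ratio of 1.41 (1.33 to 1.51).

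The 9 genes lie in 2 groups in the mouse genome (GRCm38). On chromosome 3, on the plus strand, Gbp5 (chr3:142493978-142522344), Gbp7 (chr3:142530342-142550149), Gbp3 (chr3:142560026-142573209), Gbp2b (chr3:142594847-142619179) and Gbp2 (chr3:142620602-142638008) stand side by side. On chromosome 5, on the minus strand, are Gbp8 (chr5:105014150-105139540), Gbp9 (chr5:105077630-105139539), Gbp4 (chr5:105115767-105139586) and Gbp6 (chr5:105270702-105293698). All 9 are annotated as protein-coding. The annotated models of Gbp4, Gbp8 and Gbp9 overlap each other on that strand. Near-identical sequence also limits what was counted. Of the 50-base windows of the Gbp6 transcript, 66.6% also occur in another counted gene, mostly Gbp10. The share was 19.2% for Gbp8, 10.7% for Gbp4 and 8.84% for Gbp9, and at most 4.79% for each of the 5 genes on chromosome 3. Within the first 500 bases of the transcript, where 5′ reads fall, the share was 43.0% for Gbp6, 42.1% for Gbp8, 29.1% for Gbp9 and 24.6% for Gbp4. The levels of these 4 genes are therefore uncertain, and those of the chromosome 3 genes are firmer.

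The promoters of the chromosome 3 genes are shown because the family is a textbook target of interferon-activated factors. Each is the 250 bases before a RefSeq transcript start (GRCm38.p6, plus strand), and 5 of the 9 genes were matched. Capitals mark letters of the gamma-activated site TTCNNNGAA (GAS) or of an interferon-stimulated response element, searched as GAAANNGAAA (ISRE) on both strands. GAS reads the same on both strands, the 2 motifs were allowed to overlap, and an ISRE on the other strand reads TTTCNNTTTC.

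Gbp2 (chr3:142620413-142620662): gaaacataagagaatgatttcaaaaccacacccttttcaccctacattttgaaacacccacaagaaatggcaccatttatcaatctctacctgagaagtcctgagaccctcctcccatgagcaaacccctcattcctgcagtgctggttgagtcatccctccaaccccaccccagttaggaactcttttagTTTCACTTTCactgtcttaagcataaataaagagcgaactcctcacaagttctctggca
Gbp3 (chr3:142559794-142560043): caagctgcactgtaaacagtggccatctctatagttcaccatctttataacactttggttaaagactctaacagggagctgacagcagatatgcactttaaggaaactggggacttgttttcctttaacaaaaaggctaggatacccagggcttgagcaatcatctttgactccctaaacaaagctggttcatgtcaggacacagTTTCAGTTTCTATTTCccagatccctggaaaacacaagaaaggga
Gbp5 (chr3:142496684-142496933): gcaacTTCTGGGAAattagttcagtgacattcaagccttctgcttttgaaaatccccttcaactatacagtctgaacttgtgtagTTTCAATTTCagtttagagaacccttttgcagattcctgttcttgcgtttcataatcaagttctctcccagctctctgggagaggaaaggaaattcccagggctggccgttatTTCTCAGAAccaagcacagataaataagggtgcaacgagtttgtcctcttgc
Gbp7 (chr3:142530086-142530335): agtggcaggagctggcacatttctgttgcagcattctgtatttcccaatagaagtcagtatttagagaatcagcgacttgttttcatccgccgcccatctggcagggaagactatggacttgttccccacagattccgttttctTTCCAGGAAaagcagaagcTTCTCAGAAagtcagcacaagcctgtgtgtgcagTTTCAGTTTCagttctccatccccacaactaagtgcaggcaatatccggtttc
Gbp2b (chr3:142594597-142594846): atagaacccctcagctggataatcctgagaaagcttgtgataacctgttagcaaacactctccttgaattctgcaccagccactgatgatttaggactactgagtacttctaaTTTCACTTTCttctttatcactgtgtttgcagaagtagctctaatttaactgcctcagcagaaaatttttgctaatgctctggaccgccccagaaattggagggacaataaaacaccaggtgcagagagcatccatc

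All 5 genes had an ISRE match in this window, against 2.98% of 32851 promoters of the same length. Gbp3 has a second RefSeq start, whose window held neither motif, so that 5 of 6 starts held an ISRE. A GAS match was found at Gbp5 and at Gbp7, with 2 at each gene, against 7.02% of all promoters. Those 2 genes held both motifs, against 0.332% of all promoters. The match is a description of these letters, and no binding was measured here.

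**Figure D1:**
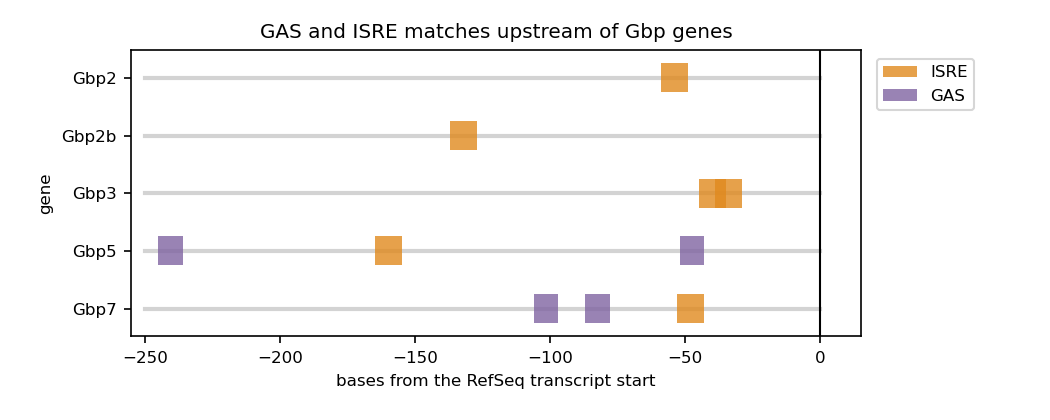
Positions of ISRE (orange) and GAS (purple) matches in the 250 bases before the RefSeq start of 5 Gbp genes; the x axis is the distance from the start in bases. Each gene has at least 1 ISRE match, and Gbp5 and Gbp7 also have 2 GAS matches each.

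Gbp2, the most abundant member and the one followed most often on parasite vacuoles in mouse macrophages, weighed most in the summed level of macrophages. In monocyte/macrophage-like cells it reached 359 CPM under LC427 and 220 CPM under vehicle, or 51.6% and 50.3% of all UMIs of the 9 genes. Gbp7, which has been placed at vacuoles and with the phagocyte oxidase in mouse cells, came next with 79.8 and 62.1 CPM. In mouse macrophages Gbp5 is known for promoting the NLRP3 inflammasome, and it stood at 58.1 CPM under LC427 and 34.9 CPM under vehicle. Gbp3 had 56.2 and 34.5 CPM, Gbp4 had 59.3 and 33.1 CPM, Gbp8 had 33.6 and 17.1 CPM, Gbp6 had 27.7 and 23.0 CPM, and Gbp9 had 17.8 and 9.46 CPM, with LC427 first each time. Gbp2b, once named mouse Gbp1, was scarce, at 4.75 CPM under LC427 and 3.51 CPM under vehicle, from 53 UMIs in each library.

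All 9 genes were higher in macrophages of the LC427 library. The 9 summed gave 696 CPM under LC427 and 438 CPM under vehicle, a ratio of 1.59 (1.54 to 1.64). The ratio was 1.97 (1.68 to 2.32) for Gbp8, 1.89 (1.51 to 2.35) for Gbp9 and 1.79 (1.59 to 2.02) for Gbp4. It was 1.66 (1.48 to 1.87) for Gbp5, 1.63 (1.56 to 1.71) for Gbp2 and 1.63 (1.45 to 1.83) for Gbp3. The smallest ratios were 1.36 (0.908 to 2.02) for Gbp2b, 1.29 (1.17 to 1.41) for Gbp7 and 1.20 (1.03 to 1.41) for Gbp6. The counting interval of 8 of the 9 genes lay above 1, against 31.8% of the genes with at least 20 UMIs, and that of Gbp2b was the exception.

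A gene was counted as higher or lower when its CPM differed by at least 1.5-fold and it had at least 20 UMIs over both libraries. All 9 GBP genes passed that minimum in macrophages, and 6 were at least 1.5-fold higher under LC427, against 10.9% of the 11518 genes with as many UMIs. None was at least 1.5-fold lower, against 6.19% of genes. The median log2 ratio of the 9 genes was 0.71, and that of all genes was 0.14. Centred on the all-gene median, the log2 ratio was lowest for Gbp6, at 0.13, and highest for Gbp8, at 0.84, with Gbp2 at 0.57. Gbp4, Gbp5, Gbp8 and Gbp9, 4 of the 9 genes, stayed past 1.5-fold, against 6.21% of all genes centred in the same way. Of these, Gbp4, Gbp8 and Gbp9 have overlapping models and uncertain levels, and only Gbp5 is among the firmer chromosome 3 genes. That centring also brought the higher calls over all genes to 39.1% of all calls, against 63.8% without it. Empty droplets moved in the same direction as the macrophages, as given above, and the part of free RNA in the macrophage ratio was not tested. When each cell was thinned to 1000 UMIs the summed ratio was 1.59 (1.496 to 1.69).

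**Figure D2:**
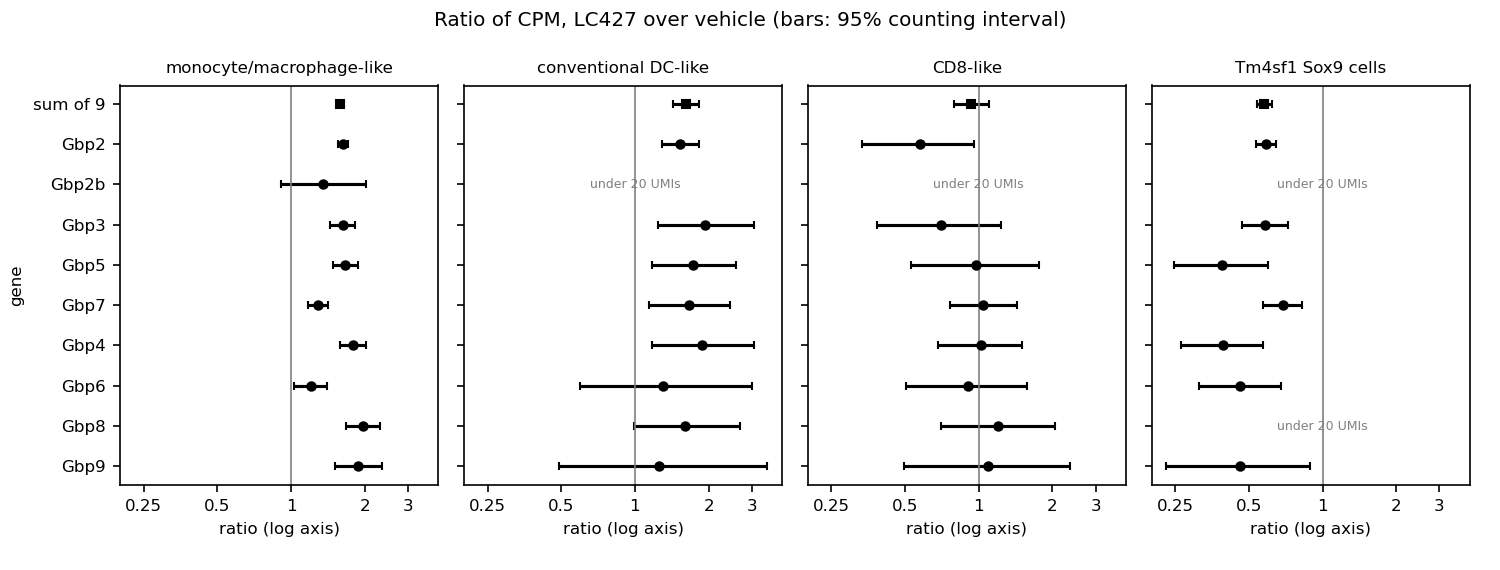
Ratio of CPM, LC427 over vehicle, for each Gbp gene and for the 9 summed (square) in 4 cell groups; bars are 95% counting intervals, the x axis is logarithmic, and the grey line marks 1. Genes with under 20 UMIs are not drawn. The ratios drawn in monocyte/macrophage-like and conventional DC-like cells lie above 1, those in Tm4sf1 Sox9 cells lie below it, and those in CD8-like cells lie on both sides.

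Macrophage clusters differed far more from each other than the 2 libraries did. Of the 8 clusters with at least 50 cells in each library, the Ly6i Nos2 cluster, whose gene Nos2 makes nitric oxide in activated macrophages, had the highest GBP level, 1473 CPM under LC427 and 1247 CPM under vehicle. A Plac8 Ifitm6 cluster had 1292 and 963 CPM, and a cluster led by the interferon-stimulated genes Rsad2 and Ifit2 had 1270 and 968 CPM. The intervals of the Plac8 Ifitm6 and Rsad2 Ifit2 clusters overlapped in both libraries. At the other end, a Cxcl3 Mmp12 cluster had 164 CPM under LC427 and 194 CPM under vehicle. The highest cluster thus exceeded the lowest 8.99-fold in the LC427 library and 6.44-fold in the vehicle library. For Gbp2 alone these figures were 11.7-fold, with 801 CPM at the top and 68.6 CPM at the bottom, under LC427, and 6.78-fold, with 695 and 103 CPM, under vehicle. Under LC427 the member with the narrowest range was Gbp7, at 4.70-fold (5.91-fold under vehicle), and under vehicle it was Gbp8, at 5.19-fold (6.87-fold under LC427).

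**Figure D3:**
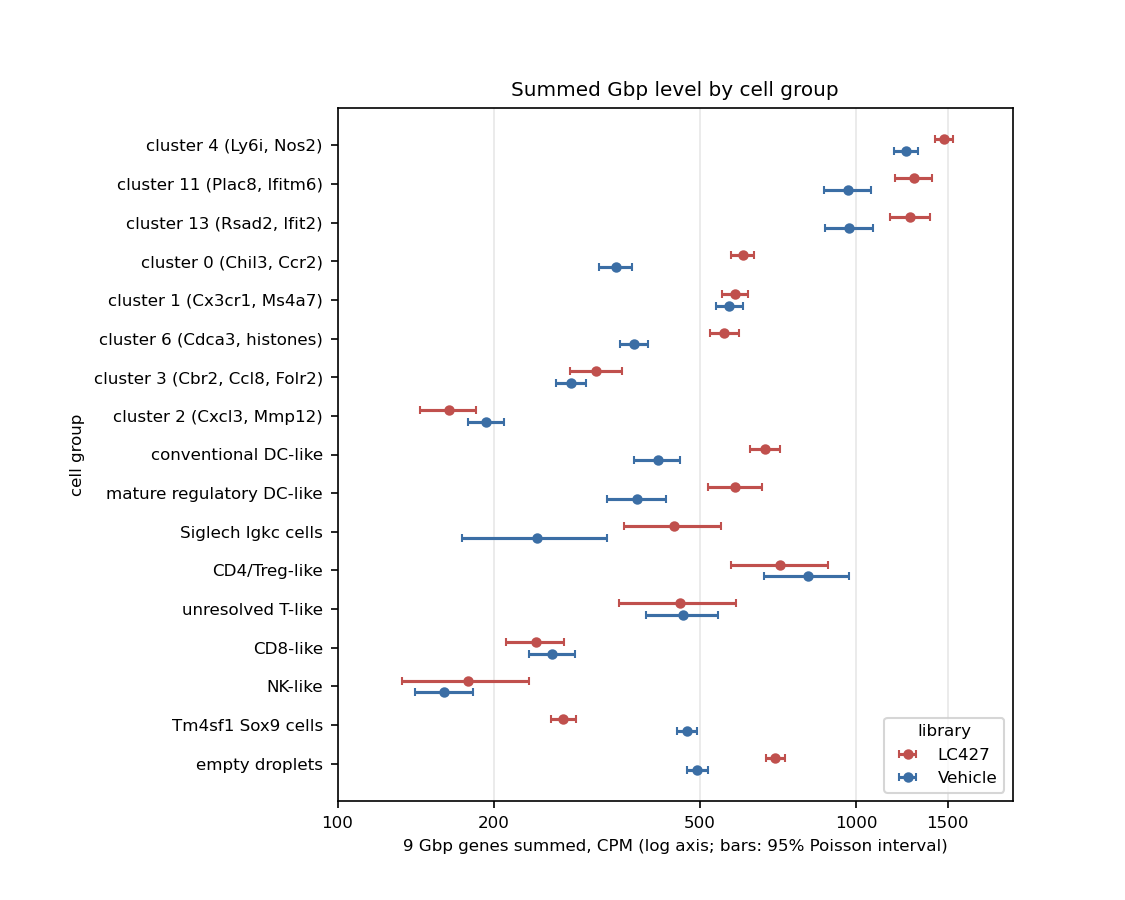
Level of the 9 Gbp genes summed, in CPM on a logarithmic axis, in each cell group of the LC427 library (red) and the vehicle library (blue); bars are 95% Poisson intervals. The Ly6i Nos2, Plac8 Ifitm6 and Rsad2 Ifit2 clusters lie highest in both libraries, and Tm4sf1 Sox9 cells show 273 CPM under LC427 and 472 CPM under vehicle.

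Within clusters the difference between the libraries was uneven. Of the 8 clusters, it was largest in the Chil3 Ccr2 cluster, where the sum was 604 CPM under LC427 and 344 CPM under vehicle, a ratio of 1.76 (1.61 to 1.92). There, Gbp5 had 32.8 and 15.7 CPM (ratio 2.09, 1.38 to 3.21), Gbp4 49.5 and 24.1 CPM (2.05, 1.47 to 2.90) and Gbp2 340 and 185 CPM (1.84, 1.63 to 2.08). Of 8 members with enough UMIs in that cluster, 5 were at least 1.5-fold higher under LC427, against 17.2% of all genes. Cycling cells led by Cdca3 and Prc1 came next, at 557 CPM under LC427 and 373 CPM under vehicle, a ratio of 1.49 (1.36 to 1.64), with 6 of 9 members past 1.5-fold, against 12.3% of genes. Gbp8 had the largest ratio in those cycling cells, 2.50 (1.54 to 4.11), from 27.8 and 11.1 CPM.

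Among the 8 clusters, the 3 with the highest GBP levels had intermediate ratios. These were 1.34 (1.18 to 1.53) in the Plac8 Ifitm6 cluster and 1.31 (1.14 to 1.51) in the Rsad2 Ifit2 cluster. In the Ly6i Nos2 cluster the ratio was 1.18 (1.11 to 1.26). All lay below the ratios of Chil3 Ccr2 and cycling cells and above those of the remaining clusters. Outside the 8 were a Neat1 Nrg1 cluster (58 and 43 cells) and a Retnla Lyve1 cluster (22 and 61 cells). The first had 1346 CPM under LC427 and 848 CPM under vehicle, a ratio of 1.59 (1.19 to 2.13). The second had 1106 and 518 CPM, a ratio of 2.14 (1.47 to 3.09). In Ly6i Nos2 cells 2 of 8 members passed 1.5-fold, against 21.1% of genes: Gbp9, at 31.4 CPM under LC427 and 13.7 CPM under vehicle, and Gbp8, at 74.2 and 43.8 CPM. Gbp2 in the same cells had 801 CPM under LC427 and 695 CPM under vehicle, a ratio of 1.15 (1.06 to 1.26). The median log2 ratio of all genes in Ly6i Nos2 cells was itself 0.20. Relative to it, the log2 ratio was 0.0036 for Gbp2 and 0.04 for the sum, so both ratios were close to the shift of all genes. Relative to the all-gene median of its own cluster, the log2 ratio of the sum was 0.64 in Chil3 Ccr2 cells, 0.49 in cycling cells, 0.40 in Plac8 Ifitm6 cells and 0.26 in Rsad2 Ifit2 cells.

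In Cx3cr1 Ms4a7 cells, the sum was 585 CPM under LC427 and 569 CPM under vehicle, a ratio of 1.03 (0.943 to 1.12). Relative to the all-gene median the log2 ratio of the sum turned negative there, at -0.15. None of the 9 members reached 1.5-fold in those cells, against 16.7% of genes. Folr2 Cbr2 Ccl8 cells had 315 and 282 CPM, a ratio of 1.12 (0.977 to 1.28), or 0.02 on the log2 scale relative to the all-gene median. Cxcl3 Mmp12 cells ran the other way, with 164 CPM under LC427 and 194 CPM under vehicle, a ratio of 0.847 (0.729 to 0.982), or -0.34 on the log2 scale relative to the all-gene median. That summed level was near the one in NK-like cells, 178 CPM under LC427 and 161 CPM under vehicle, and the part of free RNA in it was not tested. Gbp2 carried that difference, at 68.6 CPM under LC427 and 103 CPM under vehicle, a ratio of 0.670 (0.533 to 0.836), while the intervals of the other 7 members with enough UMIs all held 1. Gbp6 was the 1 member at least 1.5-fold lower, at 6.99 and 11.7 CPM, against 7.67% of genes.

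The make-up of the macrophages also differed between the libraries. Ly6i Nos2 cells were 18.4% of the class under LC427 and 8.95% under vehicle, and held 31.4% and 22.0% of its GBP transcripts. Folr2 Cbr2 Ccl8 cells, which have low GBP levels, were 7.71% of the class under LC427 and 21.4% under vehicle. Giving the clusters equal weight within macrophages lowered the summed ratio to 1.23, against 1.59 over all cells of the class. The clusters were made without the GBP genes and the pathway genes listed here among the variable genes.

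Cell by cell, GBP transcripts were sparse. With each cell thinned to 1000 UMIs, 40.8% (39.2% to 42.4%) of macrophages under LC427 and 29.0% (27.5% to 30.6%) under vehicle had a UMI of any of the 9 genes. The unthinned shares were 59.6% and 55.3%. Cells with at least 3 such UMIs made up 8.92% under LC427 and 4.67% under vehicle. Among Ly6i Nos2 cells, 67.6% under LC427 and 63.4% under vehicle had a UMI of any member, and 20.6% and 17.2% had at least 3. Cxcl3 Mmp12 cells had 12.9% and 16.7% with any. NK-like cells, the named class with the lowest summed level, still had 18.9% and 19.3%, at median depths of 1594 and 2522 UMIs per cell before thinning, against 2269 and 3622 in macrophages. In NK-like cells the summed level was 25.6% of the macrophage level under LC427 and 36.7% under vehicle, with macrophage markers at 6.88% and 5.09%. NK-like cells were therefore not shown to be free of GBP expression. A share at or below theirs, as in Cxcl3 Mmp12 cells, does not settle whether the genes were expressed. A gap between 2 such shares is not read as a difference.

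**Figure D4:**
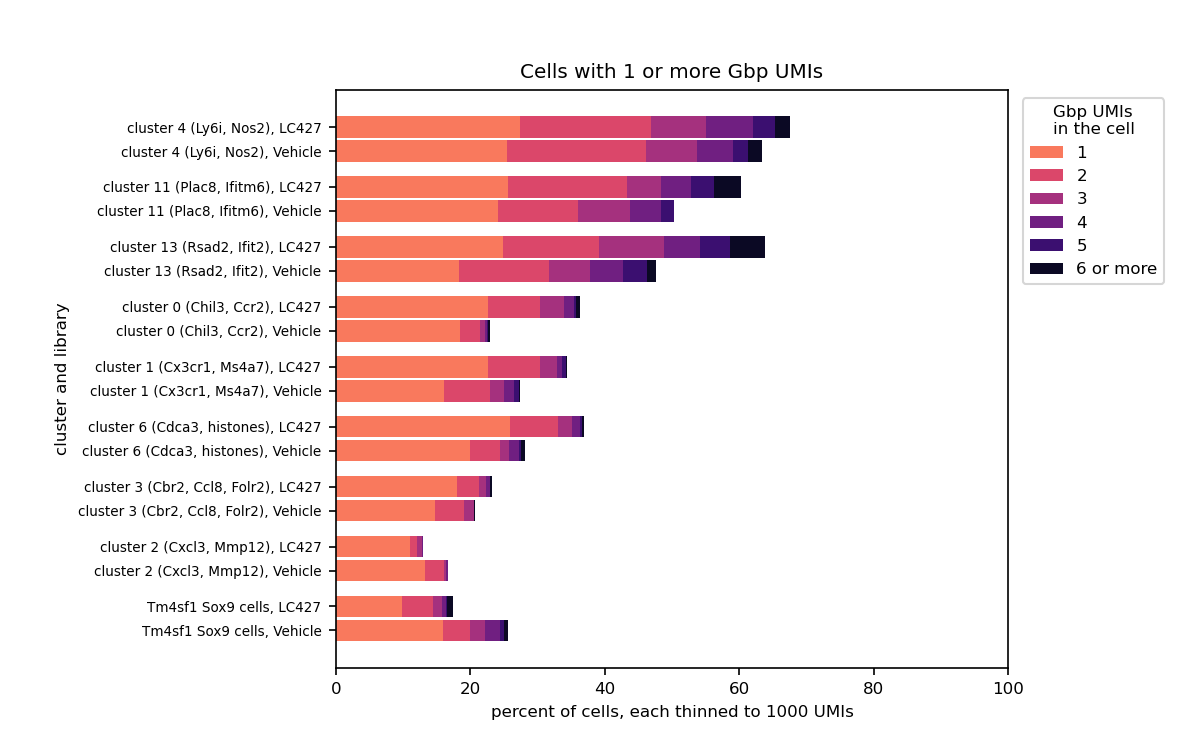
Percent of cells with 1, 2, 3, 4, 5 or at least 6 UMIs of the 9 Gbp genes after each cell was thinned to 1000 UMIs, in 8 macrophage clusters and in Tm4sf1 Sox9 cells, with the LC427 bar above the vehicle bar. Any member was seen in 67.6% of Ly6i Nos2 cells under LC427 and in 12.9% of Cxcl3 Mmp12 cells under LC427.

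Taken as a class, conventional DC-like cells resembled macrophages in summed level, but the smaller of their clusters was lower. Conventional DC-like cells (377 under LC427, 175 under vehicle) had 668 CPM of the 9 genes under LC427 and 414 CPM under vehicle, a ratio of 1.61 (1.43 to 1.83). Gbp2 had 325 CPM under LC427 and 212 CPM under vehicle, a ratio of 1.53 (1.29 to 1.83). Gbp3 had 60.9 and 31.5 CPM (1.93, 1.246 to 3.07), and Gbp5 had 73.3 and 42.4 CPM (1.73, 1.18 to 2.58). Of the 8 members with at least 20 UMIs, 6 were at least 1.5-fold higher under LC427, against 14% of 7403 genes, and none was lower, against 8.54%. Most of these cells, 338 under LC427 and 139 under vehicle, lay in a cluster led by Retnla, Ccl17, Ear2 and Dcstamp. None of these leading genes was among the markers that named the class. The summed ratio in that cluster was 1.41 (1.24 to 1.61). There, of 7 members with enough UMIs, 2 were at least 1.5-fold higher, with no share of all genes to set beside this count. The part of the make-up of the class in its count of 6 was not tested. The remainder, a cluster with Itgae and Wdfy4 (39 and 36 cells), had 299.6 CPM under LC427 and 155 CPM under vehicle. Macrophages had 696 and 438 CPM. The 14 macrophage markers summed in the class to 32.7% of their level in macrophages under LC427 and 22.7% under vehicle, and their part in the ratio was not tested. The class ratio reached 2.51 (2.12 to 2.99) when cells with at least 500 UMIs were kept and clustered anew, which put 239 and 100 cells in the class.

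Mature regulatory DC-like cells, which carry Ccr7 and Ccl22 and leave tissue for lymph nodes, had 585 CPM under LC427 and 378 CPM under vehicle, a ratio of 1.55 (1.29 to 1.85). Gbp5 was prominent there, at 123 CPM under LC427 and 67.4 CPM under vehicle, and Gbp7 was low, at 31.9 and 23.0 CPM. Gbp3 had 44.7 and 14.8 CPM, from 21 and 9 UMIs. Gbp2b had 8 UMIs under LC427 and 0 under vehicle, where a count of 0, taken to allow up to 3 UMIs, allows up to 4.93 CPM. Of 6 members with enough UMIs, Gbp3, Gbp4 and Gbp5, 3 in all, were at least 1.5-fold higher, against 17% of genes. A small cluster with the plasmacytoid DC gene Siglech also carried immunoglobulin transcripts (Igkc, Ighm) and is called here by both. Its 65 and 43 cells had 445 CPM under LC427 and 243 CPM under vehicle, and only Gbp2 reached 20 UMIs, with a ratio of 2.17 (1.05 to 4.82), against 17.4% of genes past 1.5-fold.

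**Figure D5:**
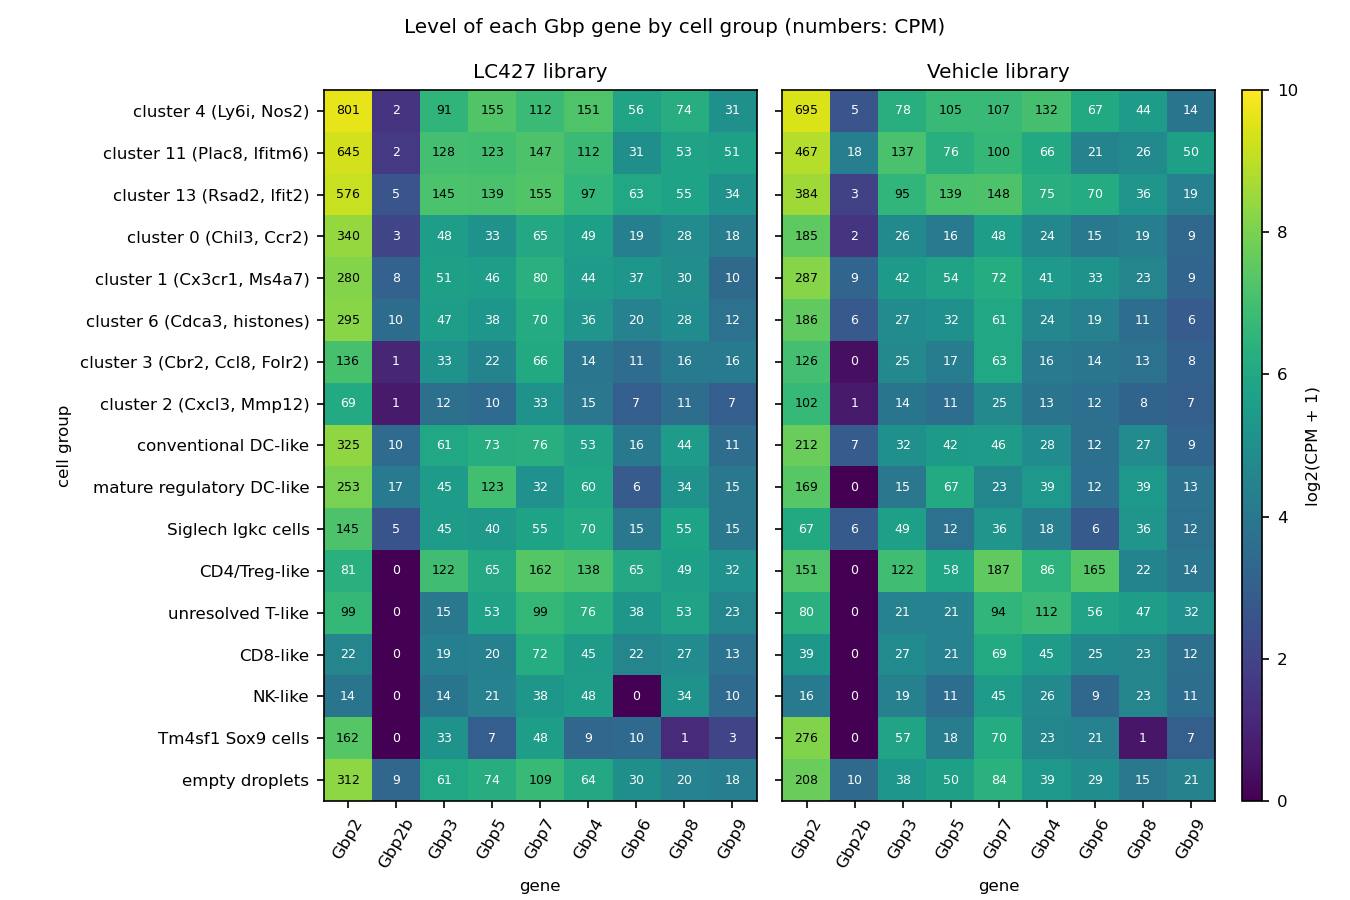
Level of each Gbp gene (columns) in each cell group (rows), with the LC427 library on the left and the vehicle library on the right; colour is log2(CPM + 1) and the numbers are CPM. Gbp2 is the brightest column in macrophage clusters and Tm4sf1 Sox9 cells, with 801 CPM in the Ly6i Nos2 cluster under LC427, and is at 22.2 CPM in CD8-like cells under LC427.

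Lymphocytes used the family differently. In CD8-like cells Gbp7 led, at 71.6 CPM under LC427 and 68.6 CPM under vehicle, followed by Gbp4, at 45.4 and 44.6 CPM. Gbp2 had 22.2 CPM under LC427 and 38.6 CPM under vehicle, or 9.21% (5.86% to 13.6%) and 14.9% (11.5% to 18.8%) of all GBP UMIs, lower than the macrophage shares above. Set against its macrophage level in the same library, Gbp2 in CD8-like cells was at 6.18% under LC427 and 17.6% under vehicle, while Gbp7 was at 89.8% and 111%. Macrophage markers in those cells were at 3.76% and 3.93% of their macrophage level. Gbp2b had 0 UMIs in the CD8-like, CD4/Treg-like, unresolved T-like and NK-like cells of both libraries.

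The summed level in CD8-like cells was 241 CPM under LC427 and 259 CPM under vehicle, a ratio of 0.930 (0.788 to 1.10). Of 8 members with enough UMIs, 1 was at least 1.5-fold lower, against 10.9% of genes, and none was higher, against 13.8%. That member was Gbp2, with a ratio of 0.574 (0.335 to 0.953) from 22 UMIs under LC427 and 58 under vehicle. The largest sub-cluster of the CD8-like cells was not the same in the 2 libraries: a Cd8a Cd8b1 sub-cluster had 220 cells under LC427 and 28 under vehicle, and an Ifng Ccl1 sub-cluster had 66 and 190.

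CD4/Treg-like cells (72 and 41) had the highest GBP level of the lymphocyte classes kept, 714 CPM under LC427 and 806 CPM under vehicle. The ratio was 0.887 (0.663 to 1.18), from 88 and 112 UMIs. Gbp7 was at 162 CPM under LC427 and 187 CPM under vehicle, and Gbp3 at 121.7 and 122.3 CPM. Gbp6 was at 64.9 and 165 CPM, a ratio of 0.393 (0.152 to 0.909). Of 5 members with enough UMIs, 1 (Gbp4) was at least 1.5-fold higher, against 15% of genes, and 2 (Gbp2 and Gbp6) were lower, against 16.7%. Tnfrsf4 and Icos were among the leading genes of CD4/Treg-like cells. They also led the mixed lymphoid and myeloid cells (348 and 101), which were set aside. Those mixed cells had 686.5 CPM under LC427 and 603 CPM under vehicle, a ratio of 1.14 (1.02 to 1.28). T cells that could not be placed had 456 CPM under LC427 and 463 CPM under vehicle. NK-like cells (143 and 362) had 178 CPM under LC427 and 161 CPM under vehicle, a ratio of 1.11 (0.806 to 1.503). That ratio fell to 0.662 (0.355 to 1.14) with a minimum of 2000 UMIs per cell. A Gzmg Gzmd sub-cluster of the NK-like cells had 2 cells under LC427 and 34 under vehicle. Its vehicle cells had a median of 13604 UMIs, against 2330 in the other NK-like sub-cluster. The part of this make-up in the NK-like ratio was not tested. In NK-like cells Gbp2 was at 3.82% of its macrophage level under LC427 and 7.27% under vehicle, where macrophage markers were at 6.88% and 5.09%. Gbp2 thus lay below the marker level under LC427 and above it under vehicle, and the part of macrophage RNA in the Gbp2 levels of NK-like and CD8-like cells was not tested. Of 7 members with enough UMIs there, 3 (Gbp4, Gbp5 and Gbp8) were at least 1.5-fold higher, against 23% of genes, and the intervals of all 7 held 1.

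A cluster with little Ptprc, the gene of CD45, went the other way. It was led by Tm4sf1, at 565 CPM under LC427 and 857 CPM under vehicle, with Sox9 at 247 and 352 CPM. Ankrd1, another gene used to find these cells, went the other way, at 272 CPM under LC427 and 147 CPM under vehicle. The cluster had 368 cells under LC427 and 176 under vehicle. Ptprc was seen in 5.71% of its cells under LC427 and 6.25% under vehicle. Keratins, which mark epithelial tumour cells, were near 0: Krt18, Krt19 and Krt20 had 0 UMIs, and Krt8 and Krt7 had 1 or 2 UMIs in each library. Collagen transcripts were present, with Col3a1 at 651 and 836 CPM. The 6 fibroblast markers were all detected, so the cells are called by their leading genes.

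In Tm4sf1 Sox9 cells the 9 genes summed to 273 CPM under LC427 and 472 CPM under vehicle, a ratio of 0.578 (0.538 to 0.622). Gbp2 had 162 CPM under LC427 and 276 CPM under vehicle, a ratio of 0.586 (0.533 to 0.644). Gbp5 had 6.99 and 18.0 CPM (0.387, 0.247 to 0.596), and Gbp4 had 8.95 and 22.9 CPM (0.391, 0.264 to 0.572). Gbp7 had 48.0 and 69.9 CPM (0.687, 0.573 to 0.824), and Gbp3 had 33.0 and 56.7 CPM (0.582, 0.470 to 0.719). Gbp6 had 9.60 and 20.8 CPM, and Gbp9 had 3.27 and 7.11 CPM. The 2 members with under 20 UMIs were Gbp8, with 6 UMIs under LC427 and 2 under vehicle, and Gbp2b, with 0 in both. Of the 7 others, 6 were at least 1.5-fold lower under LC427, against 10.5% of 10937 genes, and none was higher, against 8.5%. Their median log2 ratio was -1.12, and that of all genes was 0.02.

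Several measures moved with this result. Macrophage markers in Tm4sf1 Sox9 cells summed to 158 CPM under LC427 and 411 CPM under vehicle, which was 1.29% and 2.44% of their macrophage level, whereas the GBP genes were at 39.2% and 108% of theirs. The median depth was 10946 UMIs per cell under LC427 and 21176 under vehicle. With each cell thinned to 1000 UMIs the ratio was 0.726 (0.544 to 0.974), and any member was seen in 17.4% (13.7% to 21.7%) of cells under LC427 and 25.6% (19.3% to 32.7%) under vehicle. The LC427 share was below that of NK-like cells. Those carry GBP UMIs themselves, so the comparison does not tell whether Tm4sf1 Sox9 cells expressed the genes. The tenth of thinned cells with the most GBP UMIs held 78.1% of them under LC427 and 66.7% under vehicle. In Cxcl3 Mmp12 macrophages, where GBP UMIs were also sparse, these shares were 81.6% and 68.55%. Such shares were therefore not particular to Tm4sf1 Sox9 cells. The part of macrophage RNA and of depth in the ratio was not tested.

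Other genes of the pathway were read from 4 lists, counted by the same fold and minimum. Among 9 genes of interferon gamma signalling, none reached 1.5-fold in macrophages in either direction. Of all genes, 10.9% were higher and 6.19% lower, and in lists of 8 or 9 genes a count of 0 or 1 is near these shares. The median log2 ratio of the interferon gamma list was 0.06. Irf1, a transcription factor that interferon gamma induces, had 86.8 CPM under LC427 and 81.5 CPM under vehicle, a ratio of 1.07 (0.979 to 1.16). Of the IRGs, 7 of 8 had enough UMIs, 2 were at least 1.5-fold higher, against 10.9% of genes, and none was lower, against 6.19%, with a median log2 ratio of 0.40. The 2 were Ifi47, at 102 CPM under LC427 and 59.6 CPM under vehicle, and Tgtp1, at 5.11 and 1.92 CPM. None of the 8 inflammasome genes reached 1.5-fold in either direction, against the same shares of all genes. Nlrp3, a sensor, was at 89.9 CPM under LC427 and 131 CPM under vehicle. Of 8 genes of Atg8-type conjugation, 1 was lower, against 6.19% of genes, and none was higher, against 10.9%. The lower gene was Gabarap, an Atg8-type protein, at 333 CPM under LC427 and 557 CPM under vehicle.

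Among conventional DC-like cells 4 of 7 measured IRGs (Irgm2, Igtp, Tgtp2 and Ifi47) were at least 1.5-fold higher under LC427, against 14% of genes. In Tm4sf1 Sox9 cells 5 of 7 measured IRGs (Igtp, Iigp1, Tgtp1, Tgtp2 and Ifi47) were at least 1.5-fold lower, against 10.5% of genes, and none was higher, against 8.5%, with a median log2 ratio of -0.92. Tgtp1 and Tgtp2 are near-identical copies, and their counts are uncertain. Irf1 had 60.2 CPM under LC427 and 108 CPM under vehicle in those cells. Ifng itself had 522 UMIs in all under LC427 and 779 under vehicle, of which CD8-like cells held 69.2% and 78.8% and NK-like cells 3.83% and 10.7%. The mixed lymphoid and myeloid cells, which were set aside, held 14.75% of them under LC427 and 2.95% under vehicle. Within CD8-like cells Ifng was at 364 CPM under LC427 and 409 CPM under vehicle, a ratio of 0.890 (0.779 to 1.015).

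Across 14 cell groups in each library, 28 points in all, the genes whose level was most like the summed GBP level were ranked among 8043 genes by Pearson's r of log2(CPM + 10). Those named here are Zbp1 (0.92), a nucleic acid sensor, Psmb10 (0.91), an immunoproteasome subunit, Irgm1 (0.91), an IRG, Ifi47 (0.85), Samhd1 (0.85), Tapbp (0.85), which loads peptides on MHC class I, and Ifi205 (0.83). The points share 2 libraries and their depths, so these values are descriptions. Among the members, the pair most alike was Gbp4 with Gbp8 (0.86), whose models overlap, then Gbp7 with Gbp6 (0.83) and Gbp2 with Gbp3 (0.82). Gbp2b with Gbp6 was the least alike (0.09). Gbp2b had 0 UMIs in CD8-like, unresolved T-like, NK-like and Tm4sf1 Sox9 cells and few elsewhere, so its r values are uncertain.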

How the data were processed

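UMI counts per gene and barcode were deposited by the authors for 2 unfiltered libraries; the file headers name Cell Ranger 4, and the submitters' processing notes list GRCm38 (mm10), Seurat 3 and Cell Ranger 3.0.1. A table of the authors' cluster comparisons in each library was not used here. Libraries held 28732435 UMIs (LC427) and 33711726 UMIs (vehicle). Kept cells had 1000 or more UMIs, 400 or more genes and no more than 10% mitochondrial UMIs. Scrublet in scanpy 1.11.5 called 0 doublets, so the cells with the highest scores were removed instead (320 and 220, 0.8% per 1000 cells). Both libraries were clustered together (Leiden, resolution 1, leidenalg 0.10.2, 2000 variable genes, 30 components), and classes were named from marker lists. The mixed lymphoid and myeloid cells (348 and 101) were set aside. Ratios have exact conditional binomial intervals, levels exact Poisson intervals and shares Clopper-Pearson intervals. The ratio code was tested on simulated data. The named genes were the members, Ifng and Irf1, the list member with the largest macrophage difference, genes that made up counts of 5 or fewer, and the 8 genes most like the summed level; some results chosen by this rule are not reported here. The members and lists, and the markers Tm4sf1, Sox9 and Ankrd1, were chosen with earlier results of these data known.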

Additional observations from a re-analysis of the deposited data

Results flagged for a closer look

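The summed level of the 9 GBP genes ran in opposite directions under LC427 in different cell groups, which is what brought up these 3 results. The ratio of LC427 to vehicle was 1.59 in monocyte/macrophage-like cells, 0.578 in Tm4sf1 Sox9 cells and 0.847 in the Cxcl3 Mmp12 macrophage cluster. The counting intervals of these ratios did not overlap, but with 1 library a treatment the difference between the groups was not tested. Cxcl3 Mmp12 cells had a summed level near that of NK-like cells, and fewer of them than of NK-like cells had a GBP UMI after thinning. The part of free RNA in these low levels was not tested. The ratio of Cxcl3 Mmp12 cells is therefore given as a value and not read as a change in expression. Of the 14 cell groups ordered by level, the interval lay above 1 in 7, below 1 in 2 and held 1 in 5. Among these 7 was the Ly6i Nos2 cluster, where the log2 ratio was 0.04 relative to the median of all genes.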

How the results depend on the processing

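No paired analysis was possible because each treatment had 1 library and no result came from a test. Of the alternatives run, the direction of the macrophage sum (11 of 11), the median log2 ratio there (12 of 12), conventional DC-like cells (10 of 10) and Tm4sf1 Sox9 cells (10 of 10) was kept. For T-like cells (all T cell classes summed) it was kept in 9 of 10, with 1.05 at a minimum of 500 UMIs, and for NK-like cells in 6 of 9, with values between 0.662 and 1.32. The macrophage sum was 1.47 and the median log2 ratio 0.58 at a minimum of 2000 UMIs, which gave 0.816 in T-like and 0.662 in NK-like cells. With doublets kept the sums were 1.67 in macrophages and 2.14 in conventional DC-like cells. At resolution 2 macrophages gave 1.65 and a median of 0.78, and at resolution 0.5 conventional DC-like cells gave 2.29. They gave 2.51 at a minimum of 500 UMIs. With each library clustered alone the macrophage median was 0.81, conventional DC-like cells gave 1.93 and T-like cells 0.806. NK-like cells were then too few in at least 1 library for a ratio to be given. Median-of-ratios scaling gave 1.45 and 0.57 in macrophages, and equal weight of the macrophage clusters 1.23 and 0.38. At a fold of 2 the count in macrophages was 0 of 9, with no share of all genes at that fold to set beside it. Thinned Tm4sf1 Sox9 cells gave 0.726. With each library clustered alone that class held 125 cells under LC427, against 368 when the libraries were clustered together. Under vehicle it held 175, against 176, and the ratio was 0.561. The causes were not tested. Low UMI counts per gene in the smaller classes limit what could be seen there.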
